A study of Mus musculus with 6 samples.

Results

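The 10 genes described here encode transcription factors of the ETS family that act in blood: Fli1, Erg, Ets1, Ets2, Elf1, Elf4, Etv6, Spi1, Gabpa and Elk3. They were found by gene symbol, and each matched 1 of the 47561 rows of the count tables. The RNA came from sorted mouse LT-HSCs, the long-term repopulating blood stem cells of the bone marrow. There were 3 control libraries, with the genotype given as WT, and 3 titled Piezo1 KO, a knockout of the gene for a membrane channel that opens under mechanical load. The genotype field reads Piezo1 knockout for KO replicate 1 but names Piezo2 and Piezo3 for KO replicates 2 and 3, and groups follow the titles. The labels give no age, sex or strain, no allele or Cre driver, and do not say whether each library is a mouse of its own, so every p-value measures only the spread between these libraries, which may be technical. The choice of Fli1 and its family was made with the values of this same contrast known. The KO against control values of the 10 genes are therefore given as a description, with no p-value or call for any single one of them. Counts of members past a threshold stand beside the same share or count of all genes where it was computed, and nothing is read from them.

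ETS proteins share a winged helix DNA-binding domain that reads a short core, GGAA, and they differ in the flanking bases, partner proteins and transactivating or repressing regions around it. FLI1 and ERG are close relatives that bind with GATA2, RUNX1, TAL1, LYL1 and LMO2 at enhancers of stem cells, and FLI1 is also known as an activator of megakaryocyte and platelet genes. PU.1, the product of Spi1, is the best known ETS factor of myeloid and B cell fate, and GABPA, acting with GABPB subunits, is known for promoters of mitochondrial and housekeeping genes.

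The libraries held between 59435258 and 64653956 counts, with 16264 to 18540 genes detected. Values below are counts-per-million (CPM) of the TMM-adjusted library total, with the SD over 3 libraries. Piezo1 was at 16.95, 7.02 and 24.3 CPM in control against 4.28, 7.99 and 9.46 in KO replicates 1, 2 and 3. The library labelled control replicate 2 thus held less Piezo1 than 2 of the KO libraries, and every direction that includes it rests on its label. The 12 markers of LT-HSCs were detected in all 6 libraries, with a summed level of 1082 to 1430 CPM in control and 973 to 1237 CPM in KO. On average 4 of the 12 were higher in KO. Of the 12, Kit lay at 106 to 226 CPM in control against 293 to 344 in KO. Ly6a, the antigen Sca-1, lay at 284 to 373 against 72.8 to 206, and Tek at 4.80 to 27.8 against 28.5 to 41.0. None of these overlapped between groups. Procr averaged 48.7 CPM in control and 13.8 in KO, with overlap.

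Markers of other cells also differed. The 12 megakaryocyte and platelet markers summed to 803 to 1097 CPM in control and 1738 to 2539 CPM in KO, with 11 of 12 higher on average in KO and Gp6 at 0 in every library. Most of that sum was Pf4, at 847, 651 and 620 CPM in control against 1364, 2084 and 1726 in KO. Globin transcripts took 0.0274%, 0.131% and 0.352% of the counts in control and 2.43%, 0.929% and 0.741% in KO, while the whole erythroid list of 13 genes overlapped between groups (5065 to 10476 against 9578 to 28835 CPM, with 9 of 13 higher in KO). The library labelled control replicate 3 held 12401 CPM of the 12 granulocyte markers, against 177 and 225 CPM in the other controls and 120 to 1176 CPM in KO. The 9 markers of T and NK cells summed to 131 to 209 CPM in control and 247 to 263 in KO, with 4 of 9 higher on average in KO and Cd8a, Gzma and Il2rb at 0. Nearly all of that sum was Nkg7, at 208, 127 and 143 CPM in control against 248, 250 and 246 in KO. The 8 markers of stroma and endothelium summed to 15.8 to 39.7 and 64.5 to 107 CPM, with 6 of 8 higher in KO and Lepr and Cdh5 at 0, and most of that sum was Vwf, which is also a platelet gene. The monocyte, B lineage, and mast cell and basophil sums overlapped between the groups, with Igll1, Rag1, Mcpt8, Prss34 and Gzmb at 0. The part of these differences in the values of the ETS genes was not tested. In such bulk samples fewer cells of a type and less RNA per cell cannot be told apart.

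Fli1 lies on the minus strand of chromosome 9 from 32422204 to 32542861 (GENCODE M21, GRCm38, the build mm10 named in the submitters' processing notes). Its level was 94.6, 95.9 and 98.1 CPM in control replicates 1, 2 and 3 and 159, 216 and 207 CPM in KO replicates 1, 2 and 3. The control libraries were almost level, the KO libraries all lay above them, and KO replicate 1 was the lowest of the KO group. The means were 96.2 ± 1.77 CPM in control and 194 ± 30.5 CPM in KO (SD, n = 3 each), a log2 fold change of 1.01 (SE 0.17). The coefficient of variation among controls was 1.84%, where counting error alone gives 1.30%, and among KO libraries it was 15.7% against 0.921%. Fli1 was read from 5458 to 12983 counts per library, so counting error is small beside the distance between the groups. The library labelled control replicate 2, low in Piezo1, did not stand apart from the other controls in Fli1. With any 1 library left out, or under any other setting tried, the log2 fold change of Fli1 lay between 0.92 and 1.17.

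**Figure D1:**
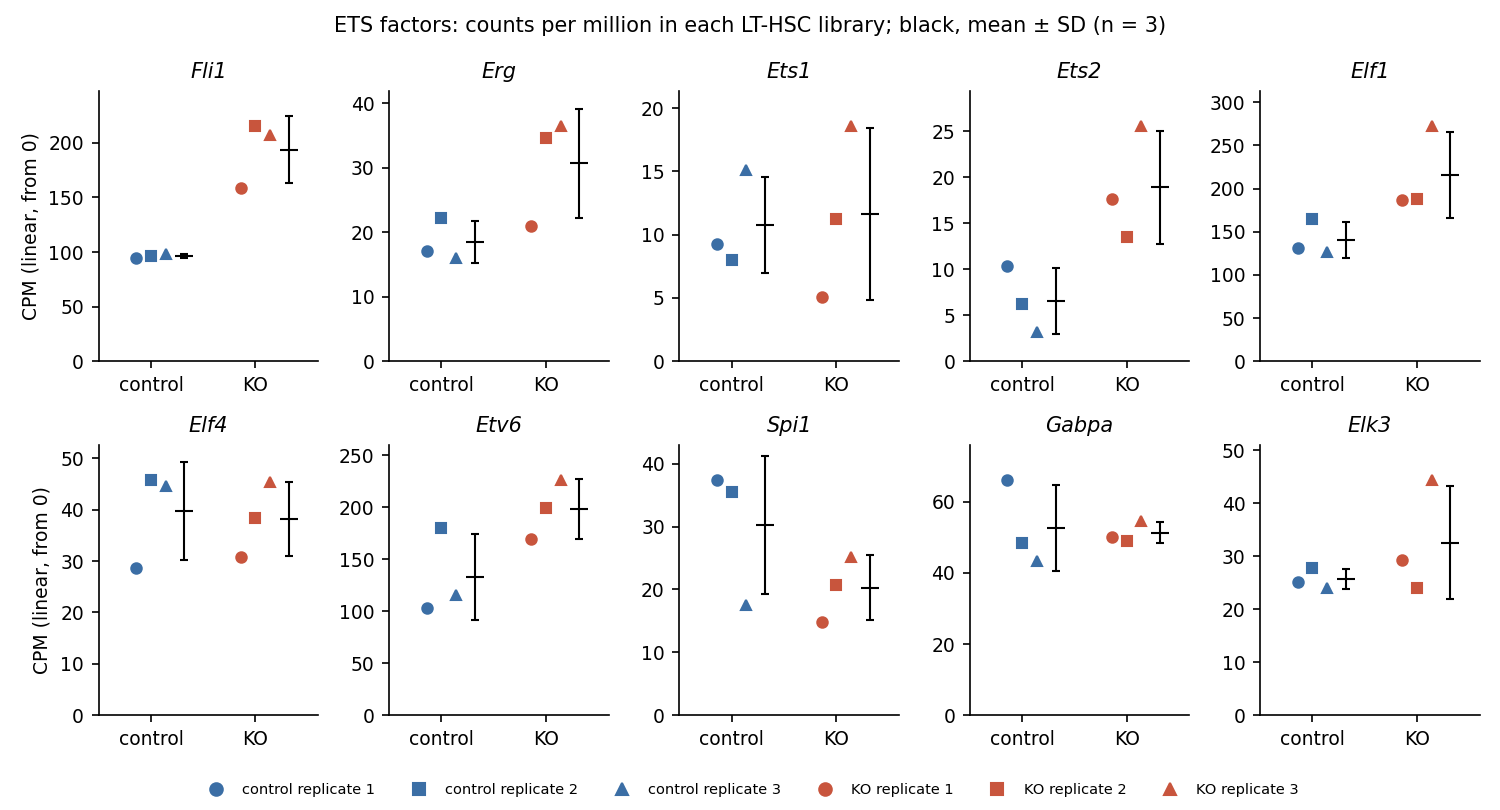
Counts in CPM (vertical axes, linear from 0, a scale for each gene) of the 10 ETS genes in the 3 control and 3 KO libraries, 1 point per library, with the mean and SD in black. The KO points lie above all control points for Fli1, Ets2 and Elf1, and the groups overlap in the other 7 genes.

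Erg, a close relative of Fli1, lies on the minus strand of chromosome 16 from 95359169 to 95586593. It was at 17.1, 22.1 and 16.03 CPM in control against 20.98, 34.6 and 36.5 in KO. KO replicate 1 lay just below control replicate 2, and the other KO libraries lay above every control. The means were 18.4 ± 3.27 and 30.7 ± 8.47 CPM (SD, n = 3 each), with a log2 fold change of 0.74 (SE 0.31), and 0.48 with a surrogate variable in the model. As in Fli1, KO replicate 1 was the lowest KO library.

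Ets1 and Ets2 encode the founding members of the family, which are targets of ERK phosphorylation. Ets1 was at 9.26, 7.99 and 15.1 CPM in control against 5.05, 11.2 and 18.6 in KO. Both the lowest and the highest value were KO libraries, and the log2 fold change of 0.11 (SE 0.55) became negative without KO replicate 3 (-0.42), without control replicate 2 (-0.09) or with a surrogate variable (-0.70), with 0.45 when KO replicate 1 was dropped and 0.43 when control replicate 3 was. Ets2 was at 10.3, 6.20 and 3.20 CPM in control against 17.6, 13.5 and 25.6 in KO, with no overlap. Its means were 6.58 ± 3.59 and 18.9 ± 6.14 CPM (SD, n = 3 each), and its log2 fold change of 1.52 (SE 0.52) was the largest of the 10, with an SE larger than that of Fli1.

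The pairs Fli1 and Ets1 on chromosome 9 and Erg and Ets2 on chromosome 16 are arranged alike in the mouse genome. In each pair the FLI1 or ERG gene is on the minus strand and the ETS gene on the plus strand, so that they point away from each other. Ets1 spans 32636221 to 32757820, 93.4 kb from Fli1, with 0 protein-coding genes between them in GENCODE M21. Ets2 spans 95702075 to 95721051, 115.5 kb from Erg, also with 0 protein-coding genes between. The log2 fold changes of the neighbours were 1.01 and 0.11 in the first pair and 0.74 and 1.52 in the second.

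Elf1 and Elf4 encode activators that bind as single proteins and are known in lymphoid cells and, for Elf4, in the control of stem cell quiescence. Elf1, on the plus strand of chromosome 14 from 79481194 to 79582494, was at 131, 165 and 126 CPM in control against 186, 187 and 273 in KO. The KO libraries lay above the controls, with KO replicate 3 far above the others. The means were 141 ± 20.8 and 215 ± 49.5 CPM (SD, n = 3 each), a log2 fold change of 0.62 (SE 0.21) that was 0.40 without KO replicate 3 and 0.29 with a surrogate variable. Elf4, on the minus strand of chromosome X from 48411046 to 48463132, was at 28.7, 45.8 and 44.7 CPM in control against 30.9, 38.4 and 45.3 in KO. The Elf4 groups covered nearly the same range, with a log2 fold change of -0.06 (SE 0.27) that ran from -0.36 to 0.06 over the alternatives.

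Etv6 and Elk3 encode repressors. ETV6, known from leukemia fusions, is required for stem cells to persist in adult bone marrow, and ELK3 is a ternary complex factor that works with serum response factor. Etv6, on the plus strand of chromosome 6 from 134035700 to 134270158, was at 103, 180 and 115 CPM in control against 170, 199 and 227 in KO. The library labelled control replicate 2 lay above KO replicate 1, and the other controls lay below all KO libraries. The log2 fold change was 0.58 (SE 0.25), and 0.34 with a surrogate variable. Elk3, on the minus strand of chromosome 10 from 93247414 to 93311135, was at 25.1, 27.7 and 24.0 CPM in control against 29.3, 23.9 and 44.4 in KO. Its high mean in KO came from KO replicate 3, and the log2 fold change of 0.35 (SE 0.29) was 0.04 without that library, -0.08 with a surrogate variable and 0.52 without KO replicate 2.

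Spi1, which encodes PU.1, lies on the plus strand of chromosome 2 from 91082390 to 91115756. It was at 37.4, 35.5 and 17.6 CPM in control against 14.8, 20.8 and 25.2 in KO. The library labelled control replicate 3, rich in granulocyte transcripts, had the lowest Spi1 of the controls and lay inside the KO range. Means were 30.2 ± 11.0 and 20.3 ± 5.19 CPM (SD, n = 3 each), a log2 fold change of -0.58 (SE 0.37), the most negative of the 10. Dropping control replicate 3 gave -0.85, and dropping control replicate 1 gave -0.39. Gabpa, on the plus strand of chromosome 16 from 84834925 to 84863779, was at 66.1, 48.4 and 43.2 CPM in control against 50.1, 49.0 and 54.6 in KO. The KO libraries lay within the control range, with a log2 fold change of -0.04 (SE 0.22) that ran from -0.16 to 0.16 over the alternatives.

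By symbol 7 of the 10 genes matched the RefSeq promoter table (GRCm38.p6), all but Fli1, Ets1 and Spi1. Erg, Elf1 and Etv6 are the relatives with log2 fold changes between 0.58 and 0.74, and Elf4 was at -0.06. For these genes the 250 bases before the upstream-most start in the table are printed, to compare their letters. Each runs 5′ to 3′ on the strand of the gene, with capitals marking the ETS core GGAA or its reverse complement TTCC.
Erg, chr16:95586594-95586843, minus strand: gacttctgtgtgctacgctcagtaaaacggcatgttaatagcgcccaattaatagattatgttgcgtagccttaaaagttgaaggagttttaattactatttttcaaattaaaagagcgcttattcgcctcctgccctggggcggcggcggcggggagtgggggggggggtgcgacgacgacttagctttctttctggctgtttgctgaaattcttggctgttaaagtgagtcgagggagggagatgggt
Elf1, chr14:79480944-79481193, plus strand: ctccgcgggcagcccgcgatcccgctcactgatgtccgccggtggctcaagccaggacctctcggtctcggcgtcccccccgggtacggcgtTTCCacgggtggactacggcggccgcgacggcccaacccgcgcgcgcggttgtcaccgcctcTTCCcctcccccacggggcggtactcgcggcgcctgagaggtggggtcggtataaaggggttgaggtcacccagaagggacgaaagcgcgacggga
Etv6, chr6:134035450-134035699, plus strand: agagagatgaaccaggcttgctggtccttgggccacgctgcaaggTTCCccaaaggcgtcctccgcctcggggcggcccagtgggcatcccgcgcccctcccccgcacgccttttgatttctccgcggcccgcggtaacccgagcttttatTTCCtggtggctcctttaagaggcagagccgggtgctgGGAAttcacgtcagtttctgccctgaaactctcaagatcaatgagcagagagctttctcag
Elf4, chrX:48463133-48463382, minus strand: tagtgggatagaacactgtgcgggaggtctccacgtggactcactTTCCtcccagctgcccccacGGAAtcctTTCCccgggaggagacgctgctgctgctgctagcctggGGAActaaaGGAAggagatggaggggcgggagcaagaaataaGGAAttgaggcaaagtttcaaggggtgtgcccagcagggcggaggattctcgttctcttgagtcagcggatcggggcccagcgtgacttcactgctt
The core was absent from the Erg window, occurred 2 times in that of Elf1, 3 times in that of Etv6 and 6 times in that of Elf4. In the windows not printed it occurred 1 time for Ets2, 2 times for Elk3 and 5 times for Gabpa. The table lists 3 starts for Erg, 2 each for Elf1 and Elf4 and 1 for Etv6. Windows before the other starts were not searched. Of 27018 promoter windows of this length, 93.4% held at least 1 core on either strand, with a median of 3. The longer form CCGGAA (reverse TTCCGG), which contains the core, was in 12.2% of all windows and, of the 7 members in the table, in that of Gabpa alone. The 8-base form CCGGAAGT (reverse ACTTCCGG) was in 2.92% of windows and in 0 of the 7. These counts describe letters in short windows only.

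All 10 genes passed the filter on low counts, and 7 had a positive and 3 a negative log2 fold change, with a median of 0.46. The median was 0.35 over the 9 relatives of Fli1, and 0.03 over all 16022 genes tested, of which 52.2% were positive. As the members were chosen with this contrast known, the counts that follow test nothing and are given only for completeness. In edgeR's quasi-likelihood fit 0 of the 10, and 0% of all genes, lay under an adjusted p of 0.05 in either direction. For the unadjusted p the counts were 4 higher and 0 lower, beside 5.44% and 5.59% of all genes, and the 4 became 2 without control replicate 1, 2 without control replicate 3 and 1 without KO replicate 3 or with a surrogate variable. Without control replicate 3 the count lower was 1. Over all genes the counts higher were 871 in the main fit, 808 without control replicate 1 and 1339 without control replicate 3. They were 562 without KO replicate 3 and 379 with a surrogate variable. The count lower over all genes was 1299 without control replicate 3, against 896 in the main fit. The genes tested numbered 16022 in the main fit and with a surrogate variable. They numbered 17121 without control replicate 1, 17038 without control replicate 3 and 16886 without KO replicate 3. For the adjusted p of DESeq2 the counts were 1 and 0, beside 1.2% and 2.05% of all genes, and for that of limma-voom 0 and 0. All 3 KO libraries lay above all 3 controls in 3 genes and below them in 0, against 10.7% and 8.76% of all genes. Dropping control replicate 2 or KO replicate 1 made that count 5, but with a library fewer any gene separates more easily. The share of all genes was not computed for those settings.

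**Figure D2:**
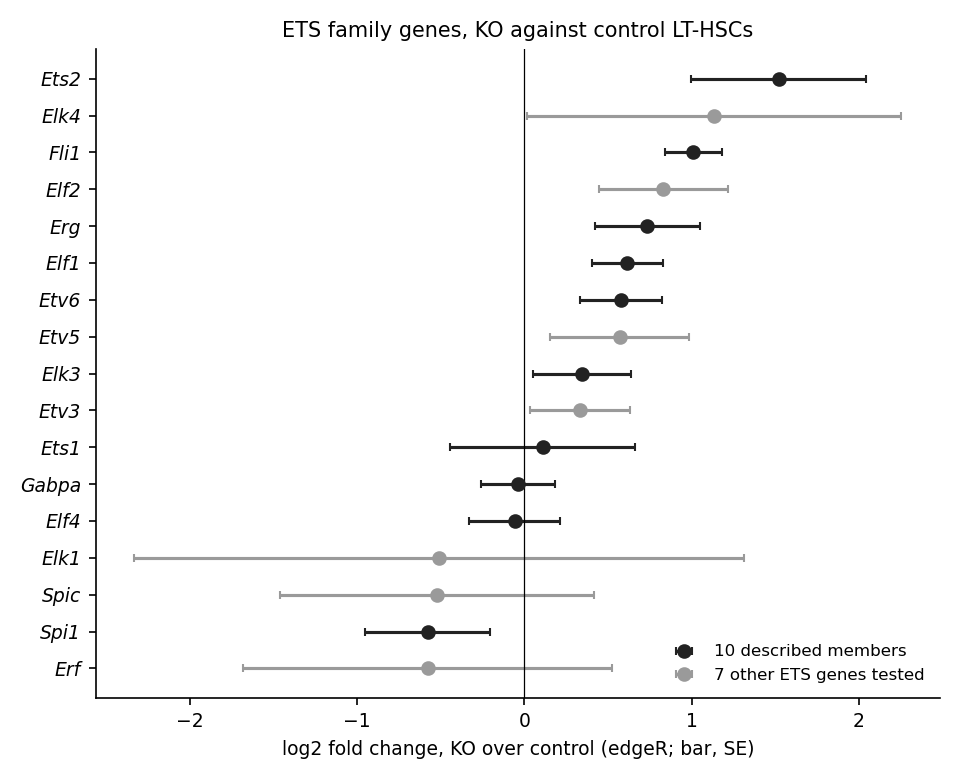
Log2 fold change of KO over control (horizontal axis, edgeR; bars are 1 SE) for the 10 members (black) and the 7 other ETS family genes that passed the filter (grey). Ets2 (1.52) and Fli1 (1.01) lie farthest to the right among the members, Fli1 with the shortest bar (SE 0.17), and Spi1 (-0.58) farthest to the left.

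Fli1 was then set against its relatives inside each library, which removes the library scaling. The log2 CPM of Fli1 minus the mean log2 CPM of the 9 relatives was 1.54, 1.47 and 1.83 in control and 2.29, 2.49 and 1.98 in KO. All KO libraries lay above all controls, KO replicate 3 and control replicate 3 being the nearest. The means were 1.61 ± 0.19 and 2.25 ± 0.25 (SD, n = 3 each), a difference of 0.64, which ranged from 0.52 to 0.83 over the alternatives. The mean of the relatives itself was 4.97 ± 0.17 in control and 5.33 ± 0.35 in KO, a difference of 0.36. As Fli1 was picked on this contrast, the distance from the relatives is a description of these libraries.

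The distance differed from relative to relative. The CPM ratio of Fli1 to Spi1 was 2.53, 2.70 and 5.59 in control and 10.7, 10.4 and 8.22 in KO, the widest shift of the 9 (1.53 on the log2 scale). The ratio to Gabpa was 1.43, 1.98 and 2.27 in control and 3.17, 4.40 and 3.79 in KO. The ratios to Elf4 and to Elk3 also did not overlap, with 2.09 to 3.30 against 4.57 to 5.62 for Elf4 and 3.46 to 4.09 against 4.66 to 9.004 for Elk3. All 9 ratios share Fli1, whose own values did not overlap between groups, so these 4 ratios are not separate results.

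In the other 5 relatives the ratio overlapped between groups. The ratio of Fli1 to Erg was 5.54, 4.33 and 6.12 in control and 7.58, 6.23 and 5.67 in KO, a difference of 0.29 on the log2 scale, the smallest in size of the 9. The ratios to Elf1 and Etv6 differed by 0.40 and 0.39, and that to Ets1 by 1.03 with wide spread. Ets2 was the relative against which Fli1 was lower in KO, by -0.63 on the log2 scale (9.14 to 30.7 in control and 8.09 to 15.97 in KO).

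**Figure D3:**
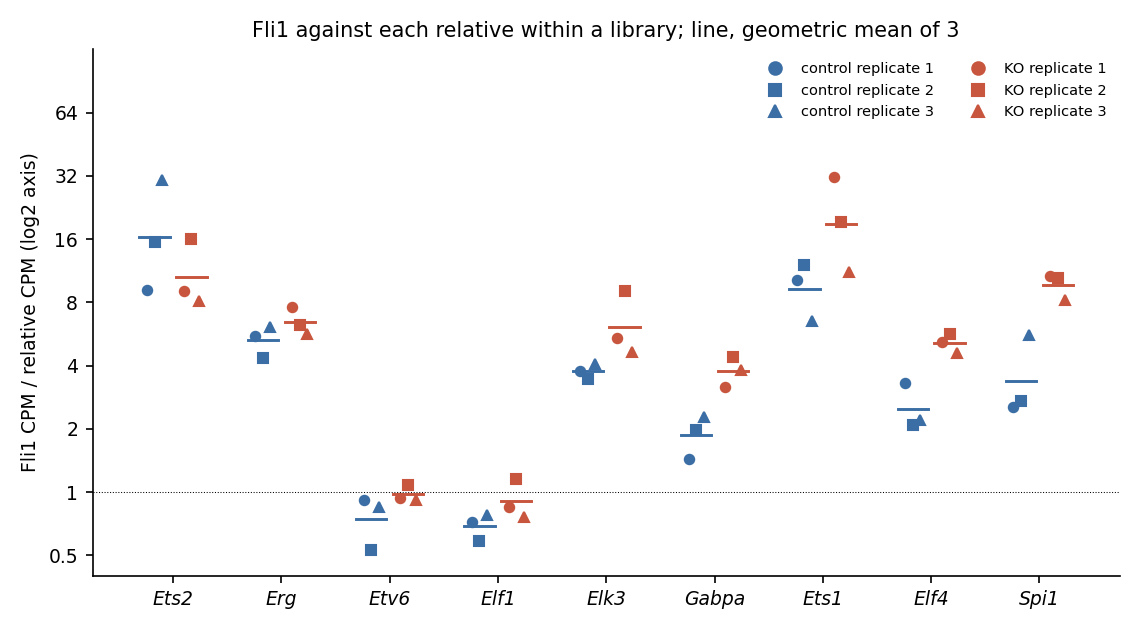
Fli1 CPM divided by the CPM of each relative in the same library (vertical axis, log2 scale), for control (blue) and KO (red) libraries, with the geometric mean of 3 as a line. The KO points lie above the control points for Elk3, Gabpa, Elf4 and Spi1, and the groups overlap for Ets2, Erg, Etv6, Elf1 and Ets1.

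Levels of different genes can be compared only per transcript length, so CPM was divided by kilobases of annotated exon (GENCODE M21). Some counted rows carry LOC or assembler-type names, so the counts were made on other gene models, whose exon lengths may differ. In control LT-HSCs Fli1 averaged 27.6 ± 0.509, Etv6 22.2 ± 6.94 and Elf1 20.9 ± 3.09 CPM per kb (SD, n = 3 each). Control ranges of Fli1 and Etv6 overlapped, as did those of Etv6 and Elf1. Spi1 at 11.2 ± 4.07 and Gabpa at 9.25 ± 2.12 CPM per kb came next and overlapped each other. Elf4, Elk3 and Erg followed at 6.46, 5.63 and 5.31 CPM per kb, each overlapping its neighbour. Ets1 at 1.27 and Ets2 at 1.14 CPM per kb were the lowest and overlapped. Gaps with no overlap separated Elf1 from Spi1, Gabpa from Elf4 and Erg from Ets1.

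In KO libraries Fli1 averaged 55.6 ± 8.75 CPM per kb (45.6 to 61.9), clear of Etv6 at 33.2 ± 4.75 and Elf1 at 31.98 ± 7.35 CPM per kb. The next 5 genes, Gabpa, Erg, Spi1, Elk3 and Elf4, lay between 9.01 and 6.21 CPM per kb, each overlapping its neighbour. Ets2 at 3.27 ± 1.06 lay above Ets1 at 1.37 ± 0.80 CPM per kb without overlap, where in control they overlapped. Divided by the longest coding transcript instead, Elf1 came before Fli1 in control. In KO Fli1 then stayed first by its mean, but its range overlapped that of Elf1. With no division Elf1 led both groups. The order of the 3 leading genes thus depends on the length used, and so does the gap between Ets2 and Ets1 in KO. With no division their KO ranges overlapped, at 13.5 to 25.6 CPM for Ets2 and 5.05 to 18.6 CPM for Ets1.

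**Figure D4:**
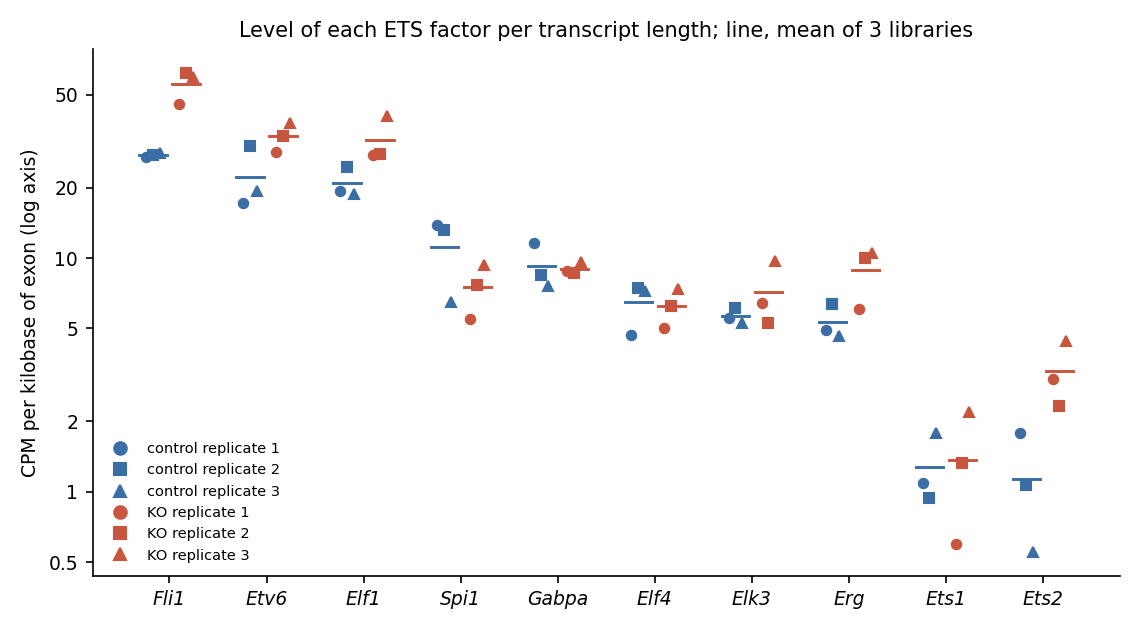
CPM per kilobase of exon (vertical axis, log scale) of the 10 genes in control (blue) and KO (red) libraries, ordered by the control mean, with the mean of 3 as a line. Fli1, Etv6 and Elf1 lie above 17 CPM per kb in every library, and Ets1 and Ets2 lie below 5 in every library.

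The 16 other ETS genes of the mouse added little to this total. Of them 6 (Elf3, Elf5, Ehf, Etv2, Fev and Spdef, several of them epithelial or neuronal factors) had 0 counts in every library, which allows up to 0.0440 to 0.0539 CPM at 3 counts per library, and 7 passed the filter. The 10 members held 92.0% ± 2.06 of the summed ETS level per kb in control and 91.8% ± 2.92 in KO (SD, n = 3 each). Fli1 alone held 23.7%, 20.3% and 25.3% in control and 29.6%, 34.5% and 29.4% in KO. Its share was higher in each KO library than in any control. As the values of Fli1 themselves did not overlap between groups, this share is not a separate result. The summed level of all 26 genes was 120 ± 13.3 CPM per kb in control and 178 ± 23.7 in KO (SD, n = 3 each), and that of the 9 relatives 83.3 ± 13.5 and 109 ± 20.7.

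Among the 7 other ETS genes tested, 0 passed edgeR's adjusted threshold and 0 had an unadjusted p under 0.05, DESeq2 called 0, and their median log2 fold change was 0.33. Elf2, the nearest relative of Elf1 in this list, was at 11.6, 19.7 and 32.98 CPM in control against 39.7, 38.7 and 35.9 in KO. All KO libraries lay above the controls, although control replicate 3 came close, and its log2 fold change was 0.83 (SE 0.39). Etv5, an ERK-responsive factor, was at 12.9, 19.4 and 18.1 CPM in control against 33.9, 28.3 and 12.7 in KO, with overlap. Etv3 averaged 15.4 ± 0.424 and 19.5 ± 4.33 CPM, and Elk4 3.42 ± 3.50 and 7.52 ± 4.17 CPM (SD, n = 3 each), both with overlap. The median was 0.71 when only genes with at least 5 CPM in 3 libraries were kept and -0.022 without KO replicate 3, 0.61 without control replicate 3, 0.15 without KO replicate 1 and 0.08 with length and GC trends removed.

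Strand was not stated for the counting, and some members share exon bases with a gene on the opposite strand in GENCODE M21. These were 327 bases of Elf1 with Wbp4, 397 of Gabpa with Atp5j, 316 of Elk3 with Cdk17 and 135 of Etv6 with the antisense transcript Gm17089. The exon totals of those 4 members were 6737, 5687, 4550 and 5983 bases. Fli1, Erg, Ets1, Ets2, Elf4 and Spi1 shared 0 exon bases with another gene in GENCODE M21, which is not the set of gene models counted.

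The genes whose pattern over the 6 libraries was most like that of Fli1 were Rybp-ps, Rap1b, Mef2c, Tacc1 and Lims1. The measure was the root mean square difference of centred log2 CPM (0.108 to 0.124). It was taken among 9748 genes averaging at least 5 CPM, after symbols of the Gm, Rik, Ensembl, LOC, accession and assembler kinds were left out. Rap1b, a small GTPase of integrin activation, was at 333, 409 and 407 CPM in control against 601, 950 and 889 in KO. Mef2c, a transcription factor of stem and lymphoid cells, was at 202, 199 and 250 CPM in control against 349, 449 and 517 in KO. Lims1, an adaptor of integrin adhesions, was at 143, 142 and 129 CPM in control against 224, 279 and 344 in KO. In all 3 the KO libraries stood above the controls and KO replicate 1 was the lowest of them, as in Fli1. Rybp-ps is named as a pseudogene, and since the treatment of multiply mapped reads is not given, its value is uncertain.

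By the same measure the ETS gene nearest to Fli1 was Erg (0.24), and the closest pair of all was Elf1 and Etv6 (0.17). The genes most like Erg were Pcmtd1, Emilin1, Lat, Man1b1 and Lcor (0.0841 to 0.125). Lat, an adaptor of T cell receptor and platelet collagen receptor signalling, was at 37.8, 39.6 and 36.4 CPM in control against 47.3, 74.8 and 78.4 in KO. These nearest genes were picked by the libraries' own values, so their likeness is a description.

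The lists that follow were put together with earlier results of these data known. Counts below use an unadjusted p under 0.05, a threshold passed by 5.44% of all genes upward and 5.59% downward, and in edgeR 0 genes of any list passed the adjusted threshold. The adjusted threshold in DESeq2 was passed by 1.2% of all genes upward and 2.05% downward. All KO libraries lay above all controls in 10.7% of all genes and below them in 8.76%. Of the 10 partners of FLI1 and ERG in stem cells, 4 were higher and 0 lower, with a median log2 fold change of 0.66, and DESeq2 called 2 higher and 0 lower. Cbfb, the partner subunit of RUNX1, was at 57.4, 82.7 and 73.2 CPM in control against 130, 114 and 127 in KO. Zfpm1, the GATA1 cofactor FOG1, was at 22.8, 33.7 and 45.7 CPM in control against 73.3, 56.4 and 85.8 in KO, and Ldb1, which bridges LMO2 complexes, at 26.7, 37.2 and 46.4 against 62.4, 56.1 and 63.4 CPM. Runx1 was at 60.9, 50.1 and 62.2 CPM in control against 68.8, 90.3 and 146 in KO. In each of these 4 genes all KO libraries lay above all controls, but they are the genes of the list with the smallest unadjusted p. The rest of the list overlapped between groups. Log2 fold changes were 0.59 for Gata2, 0.77 for Tal1, 0.44 for Meis1, 0.10 for Lmo2, -0.29 for Gata1 and -0.33 for Lyl1. The list's median was 0.42 without KO replicate 3 and 0.34 with a surrogate variable.

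Of 15 platelet genes described as FLI1 targets, 13 passed the filter, 7 were higher and 0 lower, with a median of 0.88, and DESeq2 called 5 higher and 0 lower. The same libraries that were high in Fli1 held more of the megakaryocyte and platelet markers, and 11 of the 15 genes are on both lists. The part of those markers in this count was not tested. Vwf, von Willebrand factor, was at 15.1, 37.5 and 28.3 CPM in control against 57.7, 79.7 and 91.5 in KO. Treml1, a platelet granule receptor, was at 31.6, 27.5 and 24.3 CPM in control against 46.7, 48.1 and 58.9 in KO, with Itga2b, the platelet integrin subunit, at a log2 fold change of 1.62 (SE 0.27) and Pf4, platelet factor 4, at 1.29 (SE 0.21). These 4 genes had no overlap between groups, while Nfe2, a further gene of the list, averaged 302 CPM in control and 217 CPM in KO.

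Of 18 genes described as targets of PU.1, 15 passed the filter, 0 were higher and 1 lower, with a median of -0.32, and DESeq2 called 0. The median was 0.13 without control replicate 3, the library rich in granulocyte markers, 0.09 in limma-voom and 0.03 with the replicate block, so its sign rests on that library and on the fit. It was -0.81 without KO replicate 3 and -1.01 with a surrogate variable. Ctss, the lysosomal protease cathepsin S, was the lower gene, at 29.7, 47.5 and 58.8 CPM in control against 5.28, 16.1 and 27.2 in KO. Ncf1, a subunit of the phagocyte oxidase, was at 14.6, 7.78 and 18.0 CPM in control against 0.285, 2.36 and 8.69 in KO, overlapping in 1 library. Ptprc, the leukocyte antigen CD45, was at 74.2, 139 and 119 CPM in control against 109, 151 and 197 in KO, with Csf2ra, a cytokine receptor subunit, at a log2 fold change of 0.71 (SE 0.54).

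All 17 genes described as GABPA targets or partners passed the filter, 2 were higher and 1 lower, with a median of 0.0015 that ran from -0.055 to 0.11 over the alternatives. Dnmt1, the maintenance DNA methyltransferase, was at 108, 131 and 115 CPM in control against 196, 149 and 168 in KO. Bcl2, the survival gene, was at 19.7, 46.7 and 48.1 CPM in control against 68.8, 62.8 and 98.2 in KO. Tfb2m, a mitochondrial transcription factor, was at 52.0, 36.4 and 50.4 CPM in control against 31.5, 22.5 and 33.1 in KO, with its relative Tfb1m at a log2 fold change of -0.73 (SE 0.33). The pair of mitochondrial factors and the pair Dnmt1 and Bcl2 thus lay on opposite sides of 0. DESeq2 called 0 genes of this list.

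Genes of the ERK pathway and serum response, upstream and downstream of ETS1, ETS2 and the ternary complex factors, numbered 18, with 16 tested, 3 higher and 0 lower and a median of 0.73, and DESeq2 called 1 higher and 0 lower. That median was 0.16 with a surrogate variable, 0.30 without KO replicate 3 and 0.45 without control replicate 1. Spry2, an inhibitor of receptor signalling, was at 7.38, 7.91 and 3.90 CPM in control against 16.2, 16.96 and 12.4 in KO, and Dusp6, the ERK phosphatase, at 33.8, 27.9 and 18.4 against 33.6, 51.9 and 49.0 CPM. Spry2 did not overlap between groups and Dusp6 did, by KO replicate 1. Egr1, a classical target of the ternary complex, differed by 1.85 on the log2 scale (SE 0.26) and Junb, an AP-1 subunit, by 0.90 (SE 0.48).

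Of 12 corepressors and acetyltransferases described with ETS factors, all tested, 3 were higher and 1 lower, with a median of 0.31, and DESeq2 called 0 higher and 1 lower. Ncor1, a corepressor that ETV6 recruits, was at 85.3, 118 and 165 CPM in control against 184, 184 and 263 in KO. The scaffold gene Sin3a differed by 0.54 on the log2 scale (SE 0.21). Neither Ncor1 nor Sin3a overlapped between the groups. The median of this list was -0.087 without KO replicate 3, 0.03 without control replicate 2 and -0.10 with a surrogate variable.

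**Figure D5:**
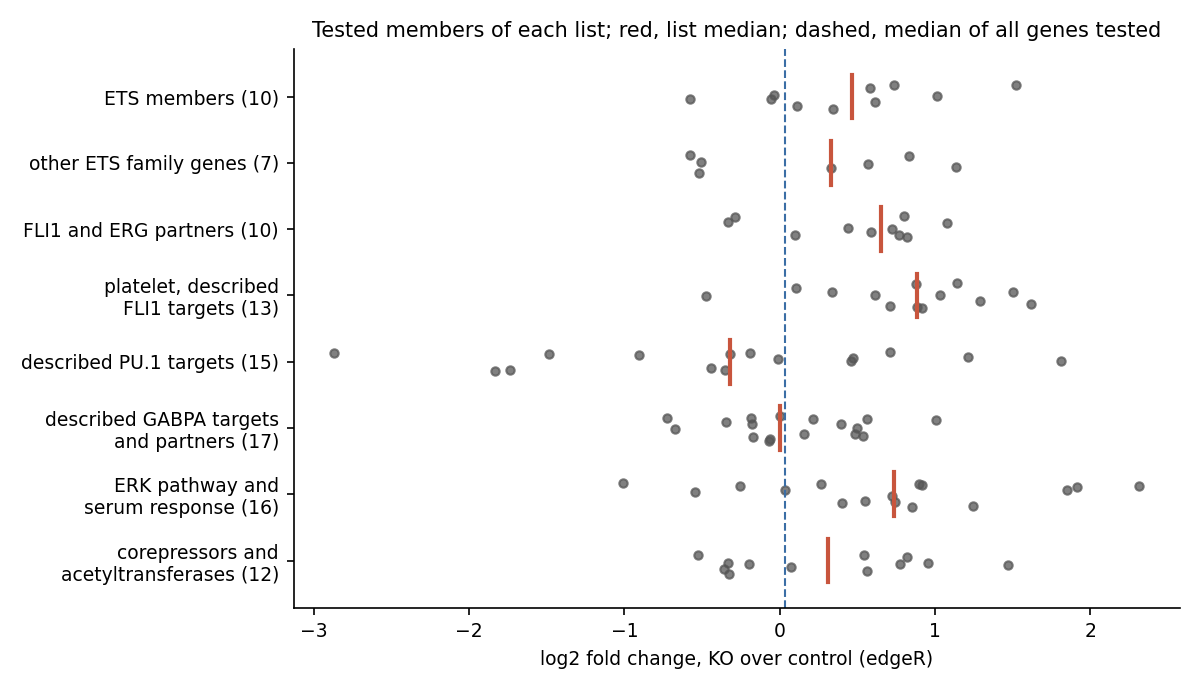
Log2 fold change of KO over control (horizontal axis, edgeR) for each tested gene of the 8 lists, 1 point per gene with the number tested in brackets, the list median in red and the median of all genes tested (0.03) as a dashed line. The medians run from -0.32 for the described PU.1 targets to 0.88 for the platelet genes, and each list has points on both sides of 0.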

How the data were processed

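LT-HSC RNA was extracted with TRIZOL and made into TruSeq libraries, per the labels' protocols. Each library has a table of raw counts per gene, deposited by the authors without scaling. The build mm10 and these tools stand in the submitters' processing notes, with no role or settings: DESeq2 2.11.40.6, featureCounts 1.6.4, HISAT2 2.1, cutadapt 1.16.5 and bcl2fastq 2.19. Strand and the treatment of multiply mapped reads are not given in the sources used here, and 2046 rows carry assembler-type identifiers. The analysis used edgeR 4.0.16 in R 4.3.3, with filterByExpr, TMM scaling and a quasi-likelihood test between the groups on the 6 libraries, with Benjamini-Hochberg adjustment over 16022 genes and a threshold of 0.05. The SE is the absolute log2 fold change divided by the square root of F. Log2 CPM used a prior count of 2. The steps were tested on simulated data.

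Members and lists were chosen with earlier results of these data known. Named list genes are the 4 with the smallest unadjusted p and at least 5 CPM in the higher group, of which some are not reported here. Nfe2, Kit, Ly6a, Tek and Procr were chosen after their values were seen. For the FLI1 and ERG partners every gene of the list is given. Alternatives were other size factors and filters, DESeq2 1.42.0, limma-voom (limma 3.58.1), the replicate block, 1 surrogate variable (sva 3.50.0), each library left out and, added after seeing the data, removal of length and GC trends (89.3% of genes had both values). No 2 libraries agreed within sampling noise.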

Additional observations from a re-analysis of the deposited data

How the results depend on the processing

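The log2 fold change of Fli1 and its distance from the mean of its relatives moved by less than the spread between replicates under all 15 alternatives. Together with the log2 fold changes of the other members that is 162 of 165 values. The exceptions were Ets1 (-0.70), Elf1 (0.29) and Elk3 (-0.08) with 1 surrogate variable. The number of genes called was 192 higher and 329 lower in DESeq2, and 1 lower with at least 5 CPM in 3 libraries, against 0 and 0. With 1 library left out it was 0 to 1 higher and 0 lower. The number of ETS members called was 1 higher in DESeq2, beside 1.2% of all genes, against 0. With 1 library left out, list medians ranged from -0.022 to 0.61 for the other ETS genes, 0.42 to 0.71 for the FLI1 and ERG partners, 0.88 to 1.10 for the platelet genes, -0.055 to 0.11 for the GABPA list, 0.30 to 0.99 for the ERK list and -0.087 to 0.45 for the corepressors. With 1 surrogate variable they were 0.34 for the partners, 0.16 for the ERK list and -0.10 for the corepressors. With length and GC trends removed the partners' median was 0.43, and with at least 5 CPM in 3 libraries that of the other ETS genes was 0.71. With no division by length 5 of 10 members kept their rank in control and 4 in KO, and with the longest coding transcript 6 did in KO. The cause was not tested. The replicate numbers come from the titles. Deviations of same-numbered libraries correlated at 0.038, 0.016 and 0.0333, and those of differently numbered libraries at -0.0389 to 0.00788. Such small values from so few libraries cannot decide whether same-numbered libraries were paired. With the replicate block 0 genes were called higher and 0 lower, and the log2 fold change of Fli1 was 0.999; no call changed. Counting error is small for these genes, so the number of libraries limits precision.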
